A study of Mus musculus with 44 samples.

Results

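Dietary fat is absorbed by enterocytes, repacked into triglyceride and sent out on apolipoprotein particles, and 9 genes of that route were followed here through organoid RNA sequencing. They are Apob, Mttp, Apoa1, Apoa4, Apoc3, Fabp1, Fabp2, Dgat1 and Mogat2, chosen by name from the 19733 gene rows of a count table with 20 libraries. All organoids were of C57BL/6 mice and were grown as a pair of separate experiments, which were fitted apart. In the first, 11 libraries were compared: small intestine organoids (2), gastric organoid lines with lentiviral CDX2 (3) or HNF4A (3), and gastric lines with lentiviral GFP, a neutral product (3). Both proteins regulate genes of the intestinal lining, and the question was which intestinal genes they bring into stomach cells. In the second, 9 libraries of stomach antrum organoids were compared, homozygous (3), heterozygous (3) or wild type (3) for loss of the 3' enhancer of Cdx2, made by CRISPR in the germline. Every organoid of that second experiment, wild type included, overexpressed HNF4A. The labels do not say which promoter drives the lentiviral transgenes or whether a line is 1 clone.

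Chylomicrons are the fat particles of the gut. In the enterocyte, fatty acids are carried through the cytosol by fatty acid-binding proteins, monoacylglycerol acyltransferase and diacylglycerol acyltransferase rebuild triglyceride, and microsomal triglyceride transfer protein loads that lipid onto apolipoprotein B as it is made. Smaller apolipoproteins then sit on the particle surface. Liver shares much of this machinery for its own lipoproteins, and HNF4A is a known activator of apolipoprotein genes there and in the gut.

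In brief, the lipoprotein scaffold gene Apob stood highest in the HNF4A lines, at 816 ± 175 CPM (SD, n = 3), against 62.8 ± 36.1 CPM in GFP lines (SD, n = 3). In CDX2 lines it averaged 59.1 ± 29.7 CPM (SD, n = 3). CPM are counts scaled to a common library total. The transfer protein gene Mttp was highest in small intestine organoids and was called higher there than in each gastric group. The apolipoprotein genes Apoa1 and Apoa4 had counts in HNF4A lines 1 and 2 at levels that GFP lines did not show. The triglyceride synthesis genes Dgat1 and Mogat2 were read in every library, with no difference called by edgeR in any comparison of the main fits. Dgat1 was called higher in small intestine in some alternative fits. Deletion of the Cdx2 enhancer gave no called difference in any tested member. In that experiment edgeR called 0% of all 12593 tested genes, so Cdx2 itself was not called either. Fabp2, which was not tested there, had 2 counts over the homozygous and 44 over the wild-type libraries, mostly in wild-type replicate 3.

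Promoter sequence was available for 6 of the 9 members in the RefSeq promoter table of GRCm38.p6. The windows shown are the bases before the transcript start of the 4 members that hold a match to an HNF4-type or a CDX2-type motif, since these are the factors that the lines carry. Capitals mark the matches. The HNF4-type motif was searched as CAAAGNNCA and the CDX2-type motifs as TTTATG and TTTATTG, on both strands. Each window is on the plus strand.
Apob, chr12:7977427-7977628: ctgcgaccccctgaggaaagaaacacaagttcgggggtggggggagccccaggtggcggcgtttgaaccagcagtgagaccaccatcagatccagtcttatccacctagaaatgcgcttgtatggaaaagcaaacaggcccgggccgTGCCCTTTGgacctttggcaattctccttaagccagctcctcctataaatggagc
Apoa4, chr9:46240594-46240843: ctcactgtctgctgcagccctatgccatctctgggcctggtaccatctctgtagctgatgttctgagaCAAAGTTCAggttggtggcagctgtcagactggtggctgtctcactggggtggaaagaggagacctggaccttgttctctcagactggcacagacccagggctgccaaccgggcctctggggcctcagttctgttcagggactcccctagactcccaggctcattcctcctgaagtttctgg
Fabp2, chr3:122894822-122895071: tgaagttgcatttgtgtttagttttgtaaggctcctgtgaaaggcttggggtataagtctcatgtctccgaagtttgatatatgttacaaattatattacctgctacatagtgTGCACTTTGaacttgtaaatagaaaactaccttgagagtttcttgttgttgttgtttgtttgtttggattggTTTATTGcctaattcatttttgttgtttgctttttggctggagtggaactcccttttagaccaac
Fabp1, chr6:71199629-71199878: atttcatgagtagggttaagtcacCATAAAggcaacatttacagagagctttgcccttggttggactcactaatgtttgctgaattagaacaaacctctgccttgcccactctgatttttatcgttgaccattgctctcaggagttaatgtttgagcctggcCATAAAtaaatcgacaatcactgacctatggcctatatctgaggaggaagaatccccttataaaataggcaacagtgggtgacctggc

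Apob holds an HNF4-type match 103 bases before the start given in the promoter table, on the minus strand, and a TATAAA sequence 60 bases before it. That start lies inside the gene span of the RefSeq gene table, so the last 48 bases of the window are not printed. Apoa4 holds an HNF4-type match 182 bases before its start. Fabp2 holds both kinds, an HNF4-type match 137 bases before the start and a TTTATTG match 65 bases before it. Fabp1 holds a pair of TTTATG matches on the minus strand, 226 and 88 bases before the start, and a TATAAA sequence 30 bases before it. Apoa1 and Mttp hold no match in these windows. Among 32851 promoter windows of the same length, 5.49% held the HNF4-type motif, 10.8% TTTATG, 4.2% TTTATTG and 12.4% TATAAA. A match is a description of these letters and not evidence of binding.

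The members lie on 6 chromosomes of GRCm38.p6. Apob is on chromosome 12 (7977629 to 8016839), Dgat1 on chromosome 15 (76502012 to 76512021), Mogat2 on chromosome 7 (99219084 to 99238611) and Fabp1 on chromosome 6 (71199879 to 71205034). Fabp2 (122895072 to 122899506) and Mttp (138089855 to 138143418) are both on chromosome 3. Apoa1 (46228630 to 46230469), Apoc3 (46233050 to 46235636) and Apoa4 (46240844 to 46243458) lie side by side on chromosome 9, with spans that do not overlap. The counts are per gene, so exons, introns and untranslated parts are not told apart.

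Library totals were 6180498 to 11007809 counts for the lines, and 8173640 to 11465309 counts for the organoids with enhancer genotypes. A gene with 0 counts in a library may be present at up to 3 counts there, which is 0.279 to 0.473 CPM in the lines and 0.256 to 0.382 CPM in the enhancer experiment. Cdx2 was at 282 and 272 CPM in small intestine, at 200, 288 and 62.0 CPM in CDX2 lines, at 50.7, 29.1 and 22.6 CPM in HNF4A lines, and at 3.95, 7.44 and 3.19 CPM in GFP lines. Hnf4a was at 717 and 885 CPM in small intestine, at 441, 197 and 186 CPM in CDX2 lines, at 502, 399 and 289 CPM in HNF4A lines, and at 158, 132 and 95.7 CPM in GFP lines. CDX2 over GFP was 5.23 ± 0.61 for Cdx2 on the log2 scale (adjusted p = 0.00853 by edgeR). HNF4A over GFP was 1.63 ± 0.36 for Hnf4a (adjusted p = 0.166 by edgeR, 0.00116 by DESeq2) and 2.80 ± 0.56 for Cdx2 (0.113 by edgeR, 3e-05 by DESeq2). Transgene and endogenous reads cannot be told apart. The relatives Cdx1 and Hnf4g averaged 126 and 34.9 CPM in small intestine, 11.6 and 27.1 CPM in CDX2 lines, 2.94 and 16.4 CPM in HNF4A lines, and 0 and 10.3 CPM in GFP lines. The summed CPM of 8 enterocyte markers (Vil1, Alpi, Sis and others) was 1388 to 1628 in small intestine, 986 to 1498 in CDX2 lines, 839 to 1011 in HNF4A lines and 447 to 642 in GFP lines. Anpep, of that list, went the other way, at a mean of 10.2 CPM in small intestine, 199 CPM in CDX2 lines, 185 CPM in HNF4A lines and 200.5 CPM in GFP lines. Lct averaged 1.04 CPM in small intestine, 0.107 CPM in CDX2 lines, 0.193 CPM in HNF4A lines and 0.489 CPM in GFP lines. A further sum was taken over 5 gastric genes (Muc5ac, Tff1, Gkn1, Gkn2 and Gkn3). It was 0.279 to 55.3 CPM in small intestine, 188 to 1603 CPM in CDX2 lines, 1067 to 4708 CPM in HNF4A lines and 1536 to 6625 CPM in GFP lines. Gkn3 made up most of it, at a mean of 24.6 CPM in small intestine, 930.2 CPM in CDX2 lines, 2345 CPM in HNF4A lines and 3884 CPM in GFP lines. In HNF4A over GFP lines 3 of the 5 (Tff1, Gkn1 and Gkn2) had a positive log2 fold change, and none was called. Another label field names the lentiviral lines small intestine organoids, while their titles say gastric, and the title was followed.

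Lentiviral HNF4A was first set against lentiviral GFP. All 8 tested members had a positive log2 fold change, and Apob was the one with the smallest p. By edgeR, 0 of the 8 were called at an adjusted p under 0.05, where 0.142% of all 12720 tested genes were, and 4 had an unadjusted p under 0.05 (background 5.76%). DESeq2 called 3, Apob, Apoa1 and Apoa4, all higher, against a background of 1.74%, and limma-voom called 0. In 5 members (Apob, Mttp, Apoa1, Fabp2 and Dgat1) all 3 HNF4A lines were above all 3 GFP lines, against 11.6% of all genes without overlap in either direction. The median log2 fold change of the members was 3.14, also with Apoa4 put at its lower bound, and that of all tested genes was 2.71e-05. Line numbers were shared between the gastric groups. With the line as a block on the gastric libraries 2.24% of all genes were called. Apob was the 1 called member (adjusted p = 0.0153) of 7 that passed the filter there. Apoa4 did not pass it.

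Lentiviral CDX2 was likewise set against GFP. Apob, Mttp, Dgat1 and Mogat2 had log2 fold changes between -0.25 and 0.17, with 95% intervals on both sides of 0, and the low-count members varied from line to line. None of the 8 tested members was called by edgeR (0.409% of all genes), by DESeq2 (3.88%) or by limma-voom. Fabp2 alone had an unadjusted p under 0.05, against 11.2% of all genes, and 0 members were free of overlap, against 16% of all genes. Without Apoa4, which had 1 count in CDX2 and 0 in GFP lines, the median log2 fold change was 0.169, beside 0.00289 for all genes.

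The transcription factors were then compared directly, CDX2 lines against HNF4A lines. Apob was lower in all 3 CDX2 lines, and so were Mttp and Dgat1. By edgeR 0 of 8 members were called (0.0236% of all genes), with 4 at an unadjusted p under 0.05 (Apob, Mttp, Apoa4 and Dgat1; 5.18% of all genes). DESeq2 called 1, Apob, lower in CDX2 lines, against 1.09% of all genes, and limma-voom called 0. The groups did not overlap for 3 members, all lower in CDX2 lines, against 8.32% of all genes. With the line as a block Apob was called as well, at -3.86 on the log2 scale (adjusted p = 0.0198), beside 1.38% of all genes. The 3 comparisons among gastric lines share their libraries in pairs and are not independent of each other.

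Small intestine organoids, the tissue in which this route normally works, were compared with each gastric group. Mttp, Apoa1, Apoa4 and Fabp2 rose in small intestine against GFP lines, which is 4 of 8 tested members, beside 27.1% of all genes called by edgeR. DESeq2 called 7 higher (35.3% of all genes), all but Mogat2, and 6 did not overlap, all higher in small intestine (59.3%). Against CDX2 lines edgeR called Mttp and Apoa4 higher, 2 of 8 (11.3% of all genes), and DESeq2 called 6 higher (21%), with 5 free of overlap (47.8%). Fitted on small intestine and CDX2 libraries alone, 0 members were called there, beside 0.579% of all genes. Against HNF4A lines edgeR called only Mttp higher, 1 of 8 (12.5% of all genes). There DESeq2 called Mttp and Fabp2 higher and Apob lower (21.9% of all genes), and Mttp, Apoa1 and Fabp2 were above and Apob below without overlap (49.9%). The members' counts against GFP and CDX2 lines can be read only against these high backgrounds. With 2 small intestine libraries, each of these calls rests on the spread shared with the gastric groups, and the 3 comparisons share the small intestine libraries.

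**Figure D1:**
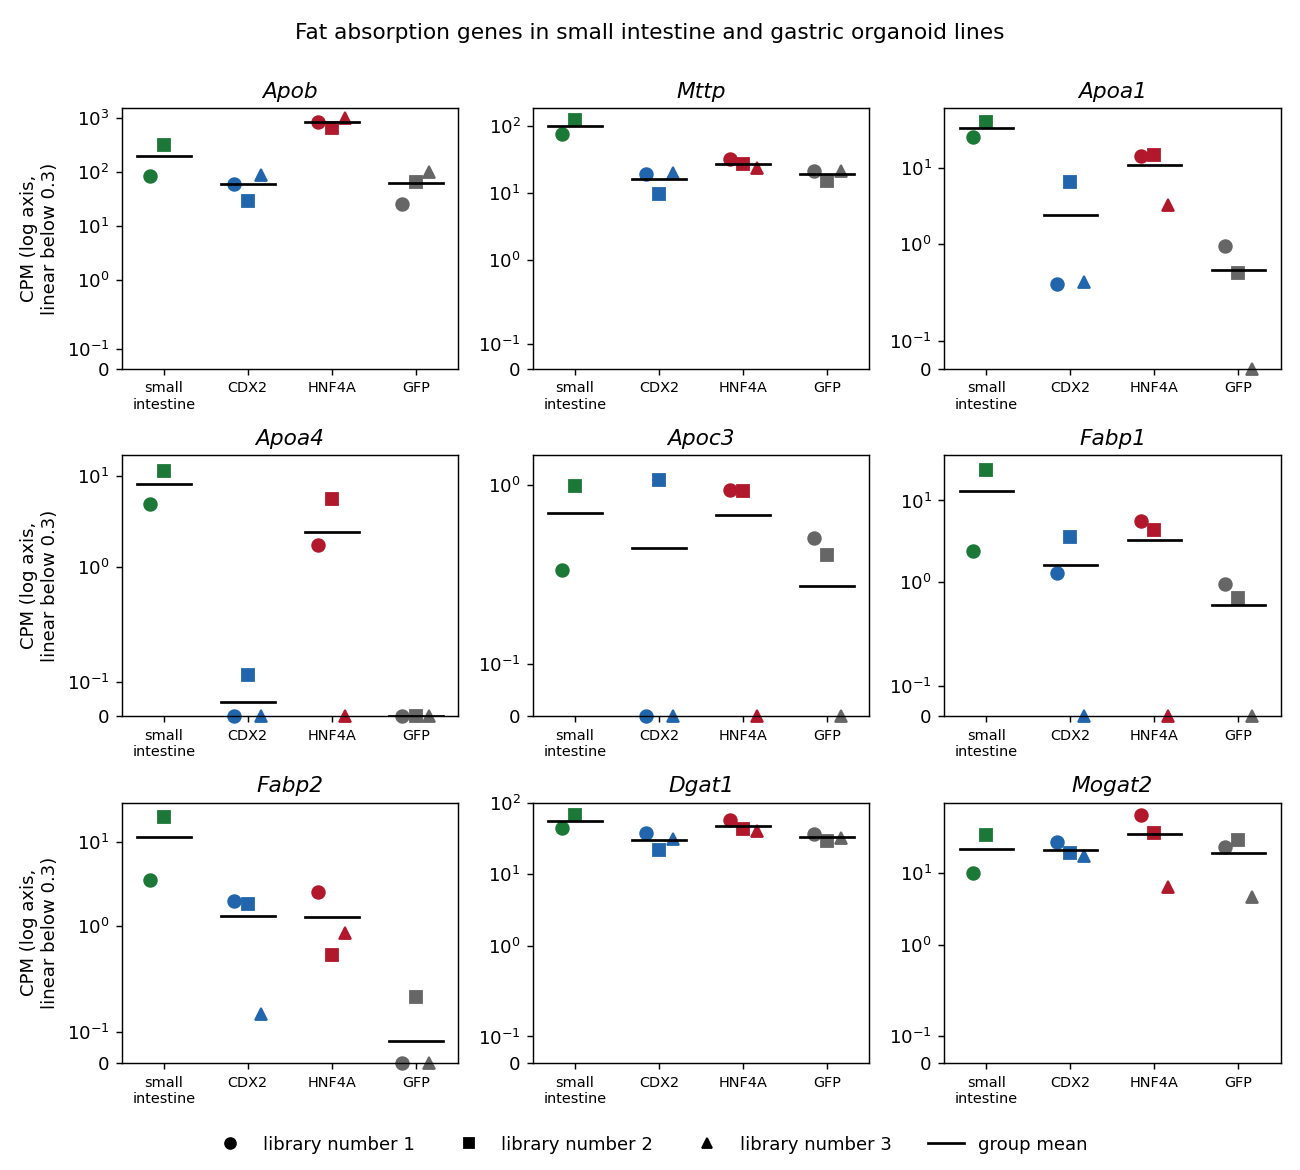
CPM of the 9 members in each library of the lines, on a log axis that is linear below 0.3 CPM, with circles, squares and triangles for library numbers 1, 2 and 3 and a bar for the group mean. Apob reaches 636 to 986 CPM in the HNF4A lines, above every other library, while Apoa4, Apoc3 and Fabp1 are at 0 in library 3 of each gastric group.

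Apob encodes apolipoprotein B, which stays with the particle for its whole life. It was measured at 82.6 and 315 CPM in small intestine, at 60.7, 28.6 and 87.9 CPM in CDX2 lines, at 827, 636 and 986 CPM in HNF4A lines, and at 25.3, 65.7 and 97.3 CPM in GFP lines. The HNF4A lines were above all 8 other libraries, the CDX2 and GFP lines overlapped, and small intestine replicate 1 lay within the GFP range. HNF4A over GFP was a log2 fold change of 3.70 ± 0.65 (SE; 95% interval 2.26 to 5.15), or 13.0-fold. Its edgeR adjusted p was 0.0711, at rank 35 of 12720 genes by p. The adjusted p was 7.12e-08 by DESeq2, 0.0963 by limma-voom, 0.0153 with the line as a block (log2 fold change 3.78) and 0.0556 to 0.301 when each library was left out in turn, so the call depends on the tool. Line by line the ratio of HNF4A to GFP was 32.7, 9.68 and 10.1. CDX2 over GFP was -0.09 ± 0.59 (95% interval -1.40 to 1.22, adjusted p = 0.979), with line ratios of 2.4, 0.435 and 0.903. Directly compared, CDX2 over HNF4A was -3.79 ± 0.65 (95% interval -5.24 to -2.34, adjusted p = 0.165 by edgeR and 8.47e-08 by DESeq2).

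In order of level Apob ran from HNF4A lines through small intestine to GFP and CDX2 lines. Small intestine over HNF4A was -2.04 ± 0.70 on the log2 scale (edgeR adjusted p = 0.0825, DESeq2 0.0101), with both small intestine libraries below all 3 HNF4A lines. Without small intestine replicate 2 that difference was -3.30 and was called (adjusted p = 0.0442). Over GFP lines small intestine was at 1.66 ± 0.65 (adjusted p = 0.0804), with overlapping groups. The small intestine libraries differed 3.81-fold from each other for Apob.

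Mttp encodes the transfer protein that lipidates apolipoprotein B. It was at 76.3 and 123 CPM in small intestine, at 19.4, 9.53 and 19.7 CPM in CDX2 lines, at 31.8, 26.6 and 23.5 CPM in HNF4A lines, and at 20.9, 15.2 and 21.6 CPM in GFP lines. Both small intestine libraries were above all 9 gastric ones, and the HNF4A lines were above the others among these. Mttp rose in small intestine by 2.37 ± 0.33 on the log2 scale over GFP lines (5.18-fold, adjusted p = 0.00204). Over CDX2 lines the difference was 2.62 ± 0.33 (adjusted p = 0.00354) and over HNF4A lines 1.87 ± 0.33 (adjusted p = 0.0111). These 3 calls held when any single library was left out, with the highest adjusted p at 0.0465. HNF4A over GFP was 0.51 ± 0.30 (95% interval -0.16 to 1.18, edgeR adjusted p = 1), with line ratios of 1.52, 1.75 and 1.09. CDX2 over GFP was -0.25 ± 0.30 (95% interval -0.92 to 0.43, adjusted p = 0.84).

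Apoa1 encodes the main protein of high-density lipoprotein and is made in gut and liver. It was at 25.9 and 40.7 CPM in small intestine, at 0.302, 6.64 and 0.316 CPM in CDX2 lines, at 14.6, 14.8 and 3.27 CPM in HNF4A lines, and at 0.960, 0.425 and 0 CPM in GFP lines. The HNF4A lines were all above the GFP lines, and among CDX2 lines line 2 stood alone. HNF4A over GFP was 4.49 ± 1.27 on the log2 scale (95% interval 1.66 to 7.32), with an adjusted p of 0.339 by edgeR and 0.00744 by DESeq2. CDX2 over GFP was 2.33 ± 1.27 (adjusted p = 0.562), and without CDX2 line 2 its sign turned, to -0.60. Apoa1 rose in small intestine by 6.09 ± 1.36 over GFP lines (adjusted p = 0.0113). Small intestine was at 3.77 ± 1.19 over CDX2 lines (adjusted p = 0.067, and 0.0153 without CDX2 line 2) and at 1.60 ± 1.10 over HNF4A lines (adjusted p = 0.345).

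Apoa4 encodes an apolipoprotein that enterocytes release with chylomicrons. It was at 4.94 and 11.1 CPM in small intestine, at 0, 0.121 and 0 CPM in CDX2 lines, at 1.74, 5.55 and 0 CPM in HNF4A lines, and at 0 CPM in all 3 GFP lines. The counts behind these values were 53 and 101 in small intestine, a single count over the CDX2 lines, 15, 49 and 0 in HNF4A lines and none in GFP lines. Taking 3 counts over the GFP lines as the limit, Apoa4 was at least 23.2-fold higher in HNF4A lines, though line 3 had none (adjusted p = 0.384 by edgeR, 0.0242 by DESeq2). It rose in small intestine at least 69.7-fold over GFP lines (adjusted p = 0.0165, and 0.0569 without small intestine replicate 1). Over CDX2 lines the ratio of small intestine counts was 191, with a 95% counting interval of 33.7 to 7580 (adjusted p = 0.0424). That last call was lost in 9 of 11 fits with 1 library left out, where the adjusted p reached 0.171 without small intestine replicate 1. For CDX2 against HNF4A lines the ratio was 0.0158 (95% counting interval 0.000393 to 0.091, adjusted p = 0.628).

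Apoc3 encodes an inhibitor of triglyceride clearance. Its counts were too low for the filter in the lines, and it was left out of the tests there. It was at 0.279 and 0.988 CPM in small intestine, at 0, 1.09 and 0 CPM in CDX2 lines, at 0.930, 0.906 and 0 CPM in HNF4A lines, and at 0.427, 0.319 and 0 CPM in GFP lines. The groups overlapped, with 12 counts in small intestine, 9 in CDX2, 16 in HNF4A and 7 in GFP lines. The count ratio of HNF4A over GFP was 2.48 (95% counting interval 0.967 to 7.14, counting error only).

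Fabp1 and Fabp2 encode the liver-type and the intestinal fatty acid-binding protein. Fabp1 was at 2.42 and 23.7 CPM in small intestine, at 1.31, 3.62 and 0 CPM in CDX2 lines, at 5.58, 4.30 and 0 CPM in HNF4A lines, and at 0.960, 0.638 and 0 CPM in GFP lines. Fabp2 was at 3.54 and 19.8 CPM in small intestine, at 2.01, 1.81 and 0.158 CPM in CDX2 lines, at 2.56, 0.453 and 0.817 CPM in HNF4A lines, and at 0, 0.213 and 0 CPM in GFP lines. In lines 1 and 2 both CDX2 and HNF4A libraries were above their GFP partners for both genes, and in line 3 Fabp1 had no counts in any group.

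Fabp2 rose in small intestine, where 218 counts stood against 2 in GFP lines, a ratio of 148 (95% counting interval 40.5 to 1230, edgeR adjusted p = 0.00763). CDX2 lines had 36 Fabp2 counts, a ratio of 19.7 over GFP (5.08 to 169, adjusted p = 0.288), and HNF4A lines 32, a ratio of 17.4 (4.44 to 150, adjusted p = 0.616). Between CDX2 and HNF4A lines Fabp2 differed by 0.08 ± 1.03 on the log2 scale (95% interval -2.21 to 2.37). Small intestine was at 3.09 ± 1.11 over CDX2 lines (adjusted p = 0.0954) and at 3.17 ± 1.11 over HNF4A lines (adjusted p = 0.0861). Fabp1 was at 4.55 ± 1.73 in small intestine over GFP lines (adjusted p = 0.0749), 2.58 ± 1.59 in HNF4A over GFP lines (adjusted p = 1) and 1.60 ± 1.59 in CDX2 over GFP lines (adjusted p = 0.79). Without HNF4A line 3, which enters the shared spread, Fabp1 was called in small intestine over GFP lines (adjusted p = 0.0416). Its small intestine replicates differed 9.79-fold.

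Mogat2 makes diacylglycerol from dietary monoacylglycerol, and Dgat1 adds the last fatty acid of triglyceride. Dgat1 was at 44.1 and 67.3 CPM in small intestine, at 37.3, 22.2 and 31.4 CPM in CDX2 lines, at 57.2, 42.6 and 40.6 CPM in HNF4A lines, and at 37.0, 29.5 and 32.6 CPM in GFP lines. Mogat2 was at 9.87 and 33.0 CPM in small intestine, at 27.1, 18.7 and 17.2 CPM in CDX2 lines, at 62.7, 35.9 and 6.40 CPM in HNF4A lines, and at 23.1, 28.3 and 4.66 CPM in GFP lines. Dgat1 held a narrow range with HNF4A lines above GFP lines, while Mogat2 spread widely within groups and was lowest in line 3 of each gastric group. Dgat1 was at 0.50 ± 0.24 in HNF4A over GFP lines (95% interval -0.04 to 1.04, adjusted p = 0.92) and at -0.12 ± 0.24 in CDX2 over GFP lines (adjusted p = 0.918). Small intestine was at 0.75 ± 0.27 over GFP lines for Dgat1 (adjusted p = 0.0606 by edgeR, 0.0472 by DESeq2, and 0.0479 by edgeR without CDX2 line 2). For Mogat2 the difference between small intestine and GFP lines was 0.20 ± 0.88 (95% interval -1.77 to 2.17), and between HNF4A and GFP lines 0.91 ± 0.80 (-0.87 to 2.68). These Mogat2 intervals are wide enough to hold a change of either sign.

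**Figure D2:**
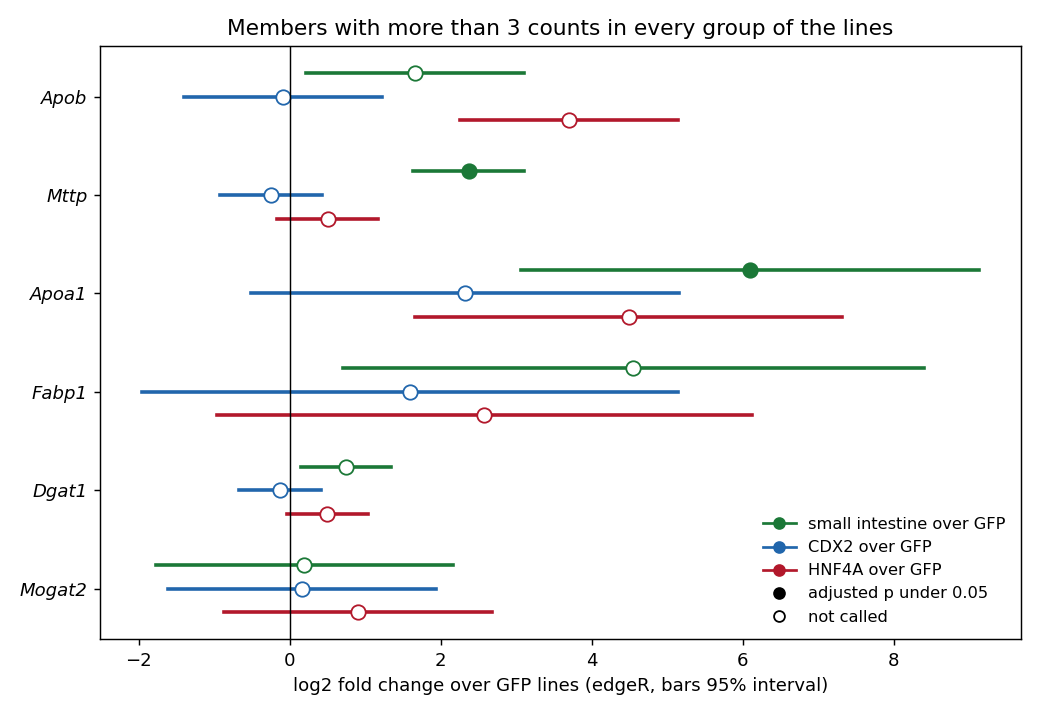
Log2 fold changes over GFP lines for the 6 members with more than 3 counts in every group, with 95% intervals, for small intestine, CDX2 and HNF4A; filled points have an adjusted p under 0.05 by edgeR. The HNF4A interval of Apob runs from 2.26 to 5.15 and the CDX2 interval from -1.40 to 1.22, and filled points are the small intestine values of Mttp and Apoa1.

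Several libraries stood apart for these genes. Small intestine replicate 2 was above replicate 1 in 9 of 9 members and over 2-fold above in 6 of 9 (66.7%), against 12.4% of all tested genes, whose median ratio was 0.977. Apoa4, Apoc3 and Fabp1 were at 0 in line 3 of CDX2, HNF4A and GFP alike, 3 of 9 members. Of the 8 tested members, which leave out Apoc3, this was 2 (25%), against 0.432% of all tested genes, and Apoa4 had no counts in the other GFP lines or in CDX2 line 1 as well. Line 3 was strictly the lowest in all 3 gastric groups for 2 of 9 members (22.2%). That is near the 18.9% of all tested genes. Line 3 also had the smallest totals of each group. Hepatocytes express most of these apolipoproteins, and the sum of their markers was lowest in line 3 of each gastric group. The summed CPM of 8 such markers (Alb, Ttr, Fga, Fgb, Ahsg, Apoh, Serpina1a and Tat) was 0.932 and 8.34 in small intestine, 7.54, 56.7 and 4.26 in CDX2 lines, 65.5, 41.2 and 22.7 in HNF4A lines, and 11.3, 18.2 and 1.10 in GFP lines. In line 3, 2, 2 and 3 of the 8 markers had counts in CDX2, HNF4A and GFP. Alb, the albumin gene, was at 0 in HNF4A line 3, where Apob was at 986 CPM and Apoa1 at 3.27 CPM. Ttr, of the same list, held at 20.4 to 25.8 CPM over the HNF4A lines and made up most of the sum in line 3. CDX2 line 2, with the highest marker sum of its group, also held the most Apoa1, Apoc3 and Fabp1 of the CDX2 lines. The part of these markers in the values of Apoa1, Apoa4, Apoc3 and Fabp1 was not tested. In these bulk libraries fewer cells of a type and less RNA per cell cannot be told apart. Without line 3, an alternative chosen after the data were seen, 0 members were called in each comparison among gastric lines, as with all libraries. Over all genes 0.343%, 0.024% and 0.00798% were called there, in CDX2 against GFP, HNF4A against GFP and CDX2 against HNF4A. In small intestine against GFP, CDX2 and HNF4A lines 5, 2 and 1 members were called, beside 26.1%, 4.52% and 7.9% of all genes.

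A wider list of 38 genes of fat absorption, from lipid uptake to its regulators, was read in the same fits, and 34 of them passed the filter. In small intestine against GFP lines 16 rose and 3 fell, against 27.1% of all tested genes called. The 3 lower calls rest on both small intestine libraries. Leaving out either leaves a single library in that group, so calls of such fits are not counted here. The sterol exporter genes Abcg5 and Abcg8 averaged 27.8 and 22.1 CPM in small intestine, against 0.178 and 0.0710 CPM in GFP lines. Abcg5 was at 7.14 ± 1.06 (adjusted p = 0.00258), and Abcg8 had 439 counts against 2, a ratio of 298 (95% counting interval 82 to 2470). The cholesterol uptake gene Npc1l1 averaged 24.9 ± 10.3 CPM in small intestine (SD, n = 2), against 0.595 ± 0.374 CPM in GFP lines (SD, n = 3), at 5.35 ± 1.07 on the log2 scale. Apoc2, the activator of lipoprotein lipase, had 225 counts against 1, a ratio of 305 (54.3 to 12100). Creb3l3, a regulator of lipid genes, had 88 counts against 2, a ratio of 59.7 (16 to 501). The fatty acid transport gene Slc27a2 was at 4.42 ± 0.69 (adjusted p = 0.00311). The 3 that fell were Abca1, a sterol exporter with 1.68 against 30.5 CPM (-4.19 ± 1.09), Scp2, a sterol carrier (-0.81 ± 0.19), and P4hb, the partner subunit of the transfer protein (-0.86 ± 0.28).

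Against CDX2 lines 5 of the 34 rose in small intestine and none fell, namely Npc1l1 (4.45 ± 1.02), Abcg5 (3.28 ± 0.84), Abcg8 (3.12 ± 0.70), Slc27a2 (2.27 ± 0.63) and the cholesterol esterification gene Soat2 (1.97 ± 0.45). Over all tested genes 11.3% were called in that comparison. Without line 3 of the gastric groups 2 of these, Npc1l1 and Soat2, were called (4.52% of all genes). None of the 34 was called with the compared groups alone (0.579% of all genes) or without CDX2 line 3 (3.51%). Without CDX2 line 2, 1 was called (8.59%). Without HNF4A line 2 or without GFP line 2, 3 were called (5.81% and 7.13%). Against HNF4A lines 4 rose and none fell, namely Abcg5 (3.02 ± 0.83), Abcg8 (2.51 ± 0.68), the glycerol phosphate acyltransferase gene Gpam (1.25 ± 0.31) and the acyl-CoA synthetase gene Acsl5 (0.98 ± 0.24). The background there was 12.5% of all tested genes, and 4 of 34 is not above it. None of the 34 was called without line 3 (7.9% of all genes), without HNF4A line 2 (2.71%) or without HNF4A line 3 (4.14%). With GFP line 1 left out 2 were called higher (9.52%), and without HNF4A line 1, 2 higher and 1 lower (8.72%). Every fit of this paragraph kept both small intestine libraries, because leaving out either leaves a single library in that group. How far these calls rest on 1 of them is therefore not shown.

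Among the gastric comparisons edgeR and limma-voom called none of the 34, with 12 at an unadjusted p under 0.05 in CDX2 against GFP, 11 in HNF4A against GFP and 6 in CDX2 against HNF4A. The shares of all genes at that level were 11.2%, 5.76% and 5.18% in the same order. With the line as a block, 7 rose and 2 fell in CDX2 lines over GFP lines, of 33 tested, where 9.67% of all 12289 genes in that fit were called. These were Abcg5, Abcg8, Acsl3, Acsl5, Dgat2, Nr1h4 and Plin2 higher, and Abca1 and P4hb lower. In HNF4A over GFP lines 6 rose under the block, Abcg5, Abcg8, Apoc2, Cideb, Pla2g12b and Soat2, and none fell (2.24% of all genes). In CDX2 against HNF4A lines 1 was called under the block, Apoc2, lower in CDX2 lines (1.38% of all genes). DESeq2 without a block called 5 higher in CDX2 over GFP lines, 6 higher in HNF4A over GFP lines, and Pla2g12b lower in CDX2 than in HNF4A lines, with 3.88%, 1.74% and 1.09% of all genes called. The genes named in this paragraph were chosen after their values were seen.

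Other genes of lipoprotein assembly, also chosen after their values were seen, were set beside Apob. Tm6sf2, which aids lipid loading, averaged 23.5 CPM in small intestine, 6.59 CPM in CDX2 lines, 29.2 CPM in HNF4A lines and 1.90 CPM in GFP lines. Pla2g12b, another lipoprotein assembly gene, averaged 7.63 CPM in small intestine, 1.98 CPM in CDX2 lines, 9.17 CPM in HNF4A lines and 0.732 CPM in GFP lines. HNF4A over GFP was 3.92 ± 1.04 for Tm6sf2 (adjusted p = 0.283) and 3.62 ± 0.57 for Pla2g12b (adjusted p = 0.0531 by edgeR). Apoc2 averaged 11.9 CPM in small intestine, 1.34 CPM in CDX2 lines, 59.2 ± 56.9 CPM in HNF4A lines (SD, n = 3) and 0.0354 CPM in GFP lines. Its counts in HNF4A lines were 1670 times those in GFP lines, where a single count was seen (95% counting interval 299 to 65900, adjusted p = 0.117). Apobec1, whose product edits Apob mRNA to the short gut form, averaged 9.85 CPM in small intestine, 7.69 CPM in CDX2 lines, 9.30 CPM in HNF4A lines and 6.67 CPM in GFP lines.

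**Figure D3:**
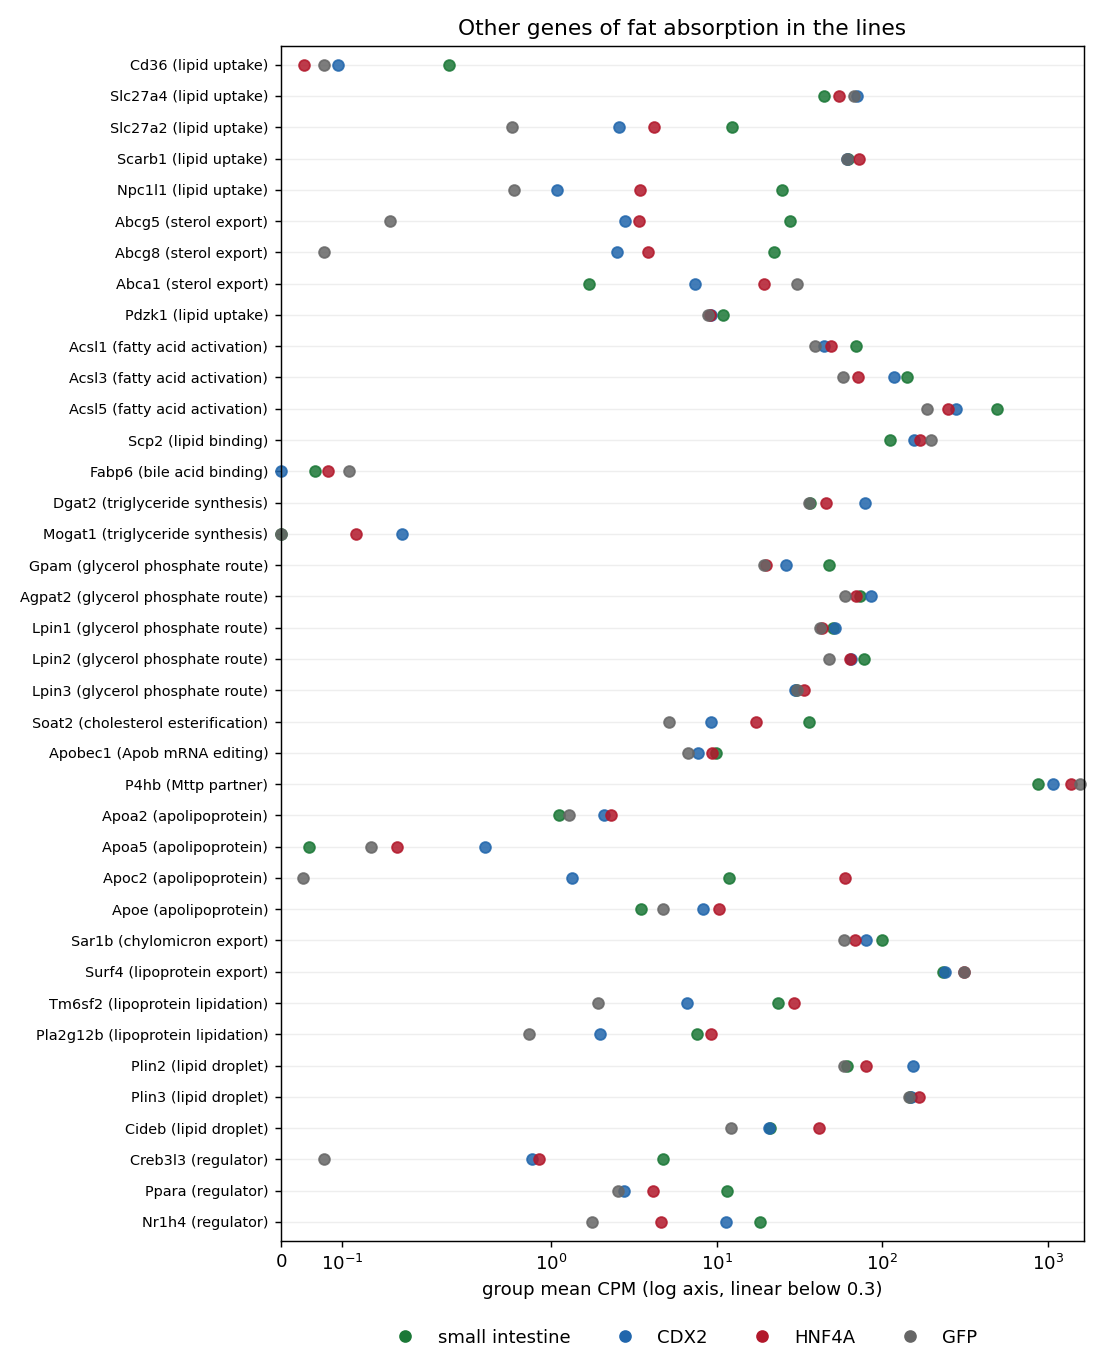
Group mean CPM of the 38 other fat absorption genes in the lines, on a log axis that is linear below 0.3 CPM, with 1 row per gene, its role in brackets and 1 point per group. Apoc2, Tm6sf2 and Pla2g12b have their highest point in the HNF4A lines, and Npc1l1, Abcg5 and Abcg8 in small intestine.

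For each tested member the genes with the most similar pattern over the 11 libraries of the lines were looked up, by the mean absolute difference of centred log2 CPM. Apob was nearest to Cfb (0.669) and Nr1i3 (0.685), Mttp to Tmem237 (0.309) and Ccl25 (0.315), and Apoa1 to Krt20 (0.885) and H2-Q10 (0.907). Apoa4 was nearest to Npc1l1 (0.784) and Smim24 (0.904), Fabp1 to Amica1 (0.672) and Phlda2 (0.787), and Fabp2 to Aldh1b1 (0.579) and Cth (0.723). Dgat1 was nearest to Ddi2 (0.144) and Lgals9 (0.17), and Mogat2 to Cbln3 (0.258) and Gdpd3 (0.362). The libraries share groups and line numbers, so these distances describe the table only.

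The enhancer experiment asked what the members did when stomach organoids overexpressing HNF4A lacked the enhancer 3' of Cdx2. Cdx2 was at 0.199, 1.36 and 0.585 CPM in homozygous, at 18.4, 5.55 and 9.31 CPM in heterozygous and at 16.7, 26.8 and 58.5 CPM in wild-type organoids, with the homozygous libraries below all others. Homozygous over wild type was -5.53 ± 0.79 for Cdx2 on the log2 scale (adjusted p = 0.377 by edgeR, 8.75e-11 by DESeq2). Hnf4a averaged 355 CPM in homozygous, 347 CPM in heterozygous and 425 CPM in wild-type organoids. Cdx1 and Hnf4g averaged 0.611 and 7.77 CPM in homozygous, 2.33 and 9.16 CPM in heterozygous, and 5.85 and 18.7 CPM in wild-type organoids. Of the members 8 of 9 passed the filter, and Fabp2 did not. In each of the 3 comparisons edgeR, DESeq2 and limma-voom called 0 of the 8 tested members, 0 of the 8 had an unadjusted p under 0.05 and 0 of the 8 were free of overlap between the groups.

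For homozygous against wild type the background shares of all 12593 genes were 0% by edgeR, 1.43% by DESeq2, 4.59% at an unadjusted p under 0.05 and 8.9% without overlap. For heterozygous against wild type they were 0%, 2.6%, 8.93% and 14.9% in the same order, and for homozygous against heterozygous 0%, 0.00794%, 0.262% and 1.95%. The members' median log2 fold change was -0.346, -0.261 and -0.0331 in these comparisons, beside 0.000669, -0.00347 and -0.0141 for all genes. None of the other 38 fat absorption genes, of which 35 passed the filter, was called by edgeR, DESeq2 or limma-voom, with 1, 3 and 0 at an unadjusted p under 0.05 by edgeR in the same order of comparisons.

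**Figure D4:**
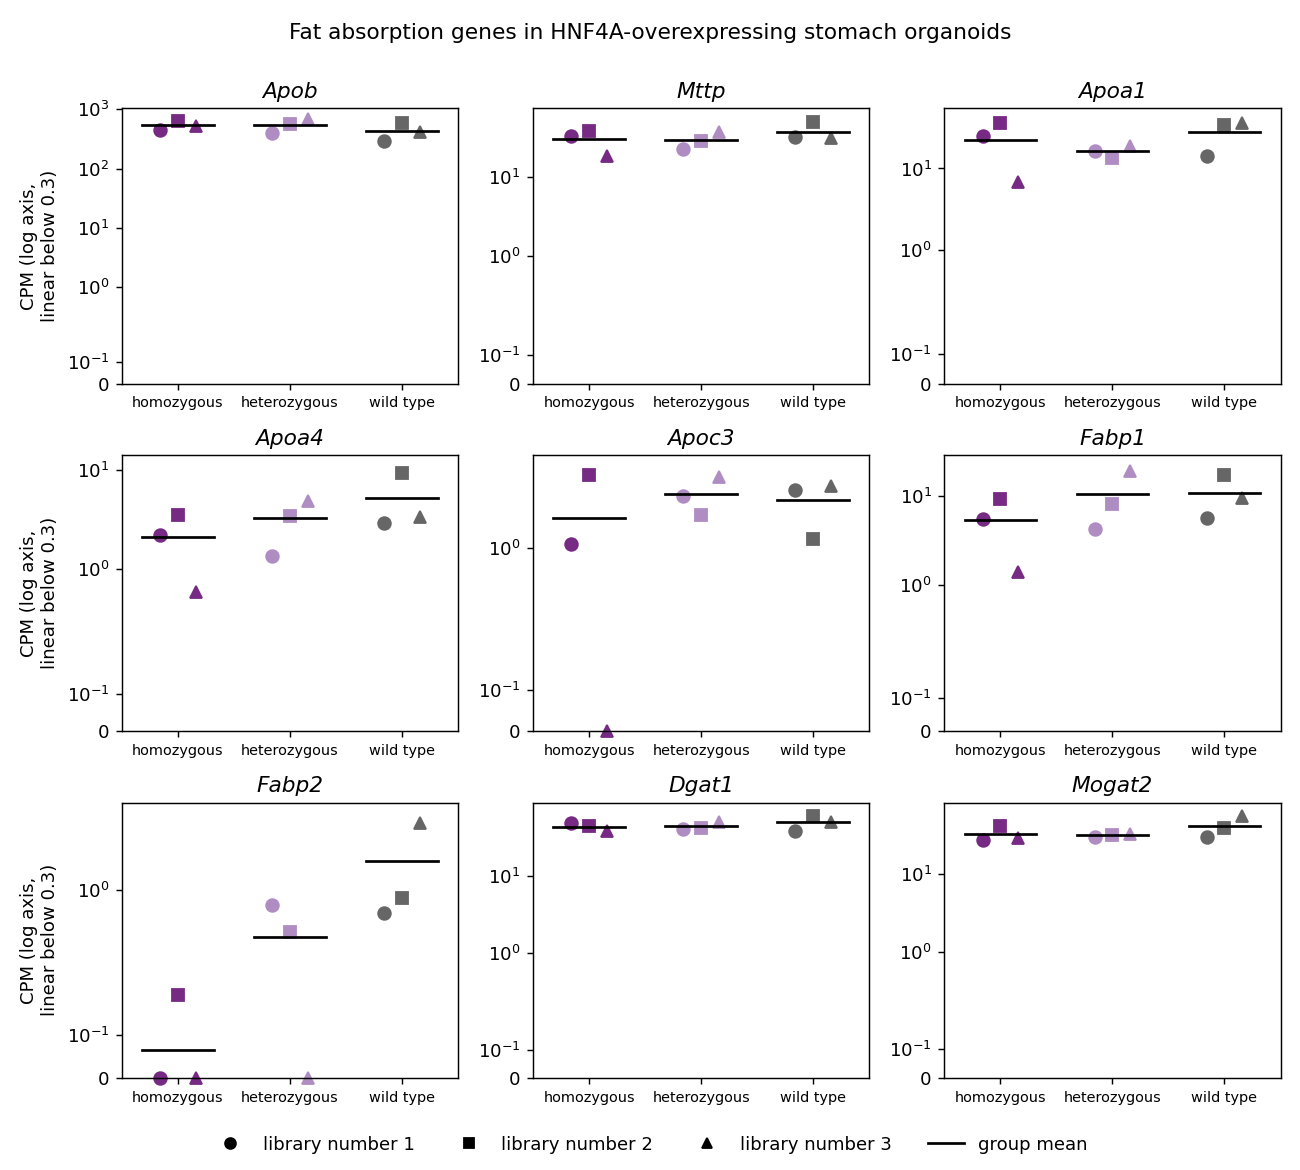
CPM of the 9 members in homozygous, heterozygous and wild-type libraries of the enhancer experiment, on a log axis that is linear below 0.3 CPM, with a bar for the group mean. Apob lies between 295 and 696 CPM in all 9 libraries, and homozygous replicate 3 is the lowest library for Mttp, Apoa1, Apoa4, Apoc3, Fabp1 and Dgat1.

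Apob was at 458, 634 and 518 CPM in homozygous and at 396, 568.1 and 696 CPM in heterozygous organoids. In wild-type organoids it was at 295, 579 and 415 CPM. The genotypes overlapped. Homozygous over wild type was 0.32 ± 0.28 on the log2 scale (95% interval -0.31 to 0.95, adjusted p = 0.999), so the interval leaves room for an increase of up to 0.95 or a decrease of 0.31. Heterozygous over wild type was 0.36 ± 0.28 (95% interval -0.27 to 1.00, adjusted p = 0.717). Mttp was at 33.6, 39.2 and 18.5 CPM in homozygous, at 22.6, 29.2 and 38.1 CPM in heterozygous and at 32.7, 50.5 and 31.9 CPM in wild-type organoids. For Mttp homozygous over wild type was -0.33 ± 0.32 (95% interval -1.05 to 0.38, adjusted p = 0.999).

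Apoa1 was at 24.8, 35.8 and 6.79 CPM in homozygous, at 16.6, 13.5 and 18.6 CPM in heterozygous and at 14.1, 34.4 and 36.3 CPM in wild-type organoids. Apoa4 was at 2.19, 3.51 and 0.585 CPM in homozygous, at 1.36, 3.41 and 4.88 CPM in heterozygous and at 2.88, 9.27 and 3.31 CPM in wild-type organoids. Apoc3, tested in this experiment, was at 1.09, 4.48 and 0 CPM in homozygous, at 2.93, 1.96 and 4.31 CPM in heterozygous and at 3.33, 1.20 and 3.56 CPM in wild-type organoids. All 3 apolipoprotein genes overlapped between genotypes, and homozygous replicate 3 was their lowest library. Homozygous over wild type was -0.33 ± 0.54 for Apoa1, -1.28 ± 0.75 for Apoa4 (95% interval -2.97 to 0.40) and -0.52 ± 1.05 for Apoc3 (95% interval -2.91 to 1.86). Heterozygous over wild type was -0.80 ± 0.54 for Apoa1 (adjusted p = 0.682) and -0.67 ± 0.73 for Apoa4 (adjusted p = 0.81).

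Fabp1 was at 5.47, 9.26 and 1.41 CPM in homozygous, at 4.19, 8.02 and 18.7 CPM in heterozygous and at 5.67, 17.1 and 9.29 CPM in wild-type organoids, with overlap. Homozygous over wild type was -0.98 ± 0.73 for Fabp1 (95% interval -2.64 to 0.68, adjusted p = 0.999). Fabp2, which was not tested, was at 0, 0.195 and 0 CPM in homozygous, at 0.734, 0.427 and 0 CPM in heterozygous and at 0.630, 0.842 and 3.82 CPM in wild-type organoids. All 3 homozygous libraries were below all 3 wild-type ones for Fabp2, with 2 counts over the homozygous, 12 over the heterozygous and 44 over the wild-type group. The count ratio of homozygous to wild type was 0.043 (95% counting interval 0.00505 to 0.165) and of heterozygous to wild type 0.248 (0.119 to 0.477). These intervals cover counting error only, and 30 of the 44 wild-type counts were in replicate 3.

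Dgat1 was at 48.1, 44.4 and 37.9 CPM in homozygous, at 40.5, 41.4 and 50.6 CPM in heterozygous and at 38.7, 60.04 and 50.01 CPM in wild-type organoids. Mogat2 was at 27.5, 41.9 and 30.0 CPM in homozygous, at 30.2, 32.6 and 33.7 CPM in heterozygous and at 30.8, 40.3 and 56.6 CPM in wild-type organoids. Both triglyceride synthesis genes overlapped between genotypes. Homozygous over wild type was -0.19 ± 0.19 for Dgat1 (95% interval -0.62 to 0.24) and -0.36 ± 0.24 for Mogat2 (95% interval -0.91 to 0.19). Between homozygous and heterozygous organoids the members' log2 differences ran from -0.93 ± 0.73 for Fabp1 to 0.47 ± 0.54 for Apoa1, all at an adjusted p of 1.

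Markers of other cells differed between these libraries. The summed CPM of 12 fibroblast markers was 36.2, 95.3 and 1036 in homozygous, 96.8, 795 and 1260 in heterozygous and 6.93, 8.18 and 5.98 in wild-type organoids. Vim and Col1a1 made up most of it in the homozygous and heterozygous groups. They averaged 171 and 97.5 CPM in homozygous, 315 and 179 CPM in heterozygous and 2.49 and 1.34 CPM in wild-type organoids. Dcn and Acta2 did not follow, with 6 and 8 counts in homozygous, 4 and 8 in heterozygous and 9 and 10 in wild type. Lum had 0 counts in each group. Wnt3a was at 95.1, 196 and 2053 CPM in homozygous, at 175, 1809 and 3099 CPM in heterozygous and at 0, 0.241 and 4.33 CPM in wild-type organoids. The 8 hepatocyte markers summed to 79.5, 215 and 10.2 CPM in homozygous, 132, 96.9 and 238 CPM in heterozygous and 148, 159 and 215 CPM in wild-type organoids. The 8 enterocyte markers summed to 861, 916 and 461 CPM in homozygous, 658, 641 and 676 CPM in heterozygous and 801, 1126 and 850 CPM in wild-type organoids. Vil1 and Anpep made up most of that sum. Cdh17 averaged 15.9, 32.3 and 78.6 CPM and Slc5a1 1.36, 2.66 and 13.6 CPM, in the same order. In homozygous over wild type 5 of the 6 tested markers had a negative log2 fold change and 1 a positive one. DESeq2 called 2 of them lower, against 1.43% of all genes, and edgeR called 0. Homozygous replicate 3, the lowest library for 6 members, was also the lowest in both the hepatocyte and the enterocyte sum. Their part in the members' values was not tested. The 3 libraries richest in fibroblast transcripts, homozygous replicate 3 and heterozygous replicates 2 and 3, were then left out. The homozygous and heterozygous libraries that stayed still summed to 36.2 to 96.8 CPM, above the highest wild-type sum of 8.18 CPM. A single heterozygous library stayed, so only log2 fold changes are given for this fit. There Apoa1 was at 0.11 and Apoc3 at 0.05 in homozygous over wild-type organoids, where all libraries gave negative values.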

How the data were processed

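RNA sequencing covered 20 of the 44 samples of the series; the other assays were not used here. Per the labels' protocols, RNA was taken with TRIzol and a Qiagen column with DNase, poly-A libraries were made with an NEB kit and read as 150-base pairs on an Illumina instrument. The deposited values are raw counts per gene symbol, 1 column per library. The submitters' processing notes name STAR and build mm10, and for the lines also hg19, Bowtie2 and Cell Ranger, with no role. The counting program, the strand setting and the annotation were not given in the sources used here, and without strand an overlapping antisense gene cannot be told apart. No transcript lengths were used, so levels were not compared between genes.

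Counts were fitted with edgeR 4.0.16 in R 4.3.3 (TMM factors, the filterByExpr filter at a count of 10 and a total of 15, robust quasi-likelihood F test, two-sided). All groups of an experiment shared 1 fit, and p-values were adjusted by Benjamini-Hochberg over all tested genes, 12720 in the lines and 12593 in the enhancer experiment. A gene was called at an adjusted p under 0.05. CPM were scaled by the TMM library size within an experiment. Standard errors were taken from the log2 fold change and its F value, and 95% intervals are approximate. For a group with 0 counts, 3 counts over its libraries were put in its place and the fold given as a lower bound, and with 1 to 3 counts the ratio has an exact counting interval, which covers counting error only. DESeq2 1.42.0, limma 3.58.1 (voom), other size factors, no filter, the compared groups alone, a replicate block and leaving out libraries were the alternatives. The fitting code was tested on simulated data.

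Members and gene lists were chosen with earlier results of these data known. The genes named were the 9 members, Cdx2, Cdx1, Hnf4a and Hnf4g, up to 6 called genes per direction of the 38-gene list, and the 2 nearest genes by pattern for each member, among genes of mean log2 CPM of at least 1 (prior count 2). Others were chosen after their values were seen, as the text says.

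Line numbers pair the gastric libraries: deviations from the group mean correlated at 0.336 to 0.751 in 9 same-numbered pairs. Pairs with small intestine (-0.0881 to 0.118) and with wild type (-0.29 to 0.244) shared only a number, and homozygous and heterozygous libraries correlated at 0.188 to 0.53. Nothing in the labels says whether libraries of a group came from separate animals or cultures, so p-values measure the spread between these libraries, which may be technical. Columns named Del were read as the homozygous deletion.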

Additional observations from a re-analysis of the deposited data

How the results depend on the processing

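In the 5 comparisons where the count of called members moved with the tool, DESeq2 called 3 in HNF4A against GFP, 1 in CDX2 against HNF4A, 7, 6 and 3 in small intestine against GFP, CDX2 and HNF4A, where edgeR called 0, 0, 4, 2 and 1. With the replicate block on the gastric libraries, 1 member was called in HNF4A against GFP (2.24% of all genes) and 1 in CDX2 against HNF4A (1.38%). In small intestine against CDX2 lines, 0 were called with the compared groups alone (0.579% of all genes). With a replicate block 4 were called (23.1%), though small intestine shares only a number with the lines. Apoa1 (adjusted p = 0.022 by edgeR) and Dgat1 (0.047) were the members added. The same block took the count against GFP to 6, with Apob (adjusted p = 0.0363) and Fabp1 (0.0449) added. There 39% of all genes were called. With 1 gastric library left out, 1 to 2 were called in small intestine against CDX2, where 3.51% to 10.7% of all genes were. Against HNF4A the count stayed at 1 (2.71% to 13.5% of all genes). Against GFP the count was 4 to 5 (17.3% to 28.6% of all genes). Fits with a single small intestine library are not counted here. RLE factors and no filter left the direction and call of all 72 single-member results as they were. The cause of these shifts was not tested.

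Calls over all genes moved more. In CDX2 against GFP 43 rose and 9 fell by edgeR, 348 and 145 by DESeq2, 3 and 1 by limma-voom, 13 and 1 with the compared groups alone, and 641 and 547 under the block. In HNF4A against GFP 18 rose and 0 fell by edgeR, 197 and 24 by DESeq2, 5 and 0 by limma-voom, and 216 and 59 under the block. In CDX2 against HNF4A the counts were 2 and 1 by edgeR, 62 and 77 by DESeq2, and 79 and 90 under the block. In small intestine against GFP edgeR gave 1806 and 1642, DESeq2 2168 and 2325, and the block 2635 and 2331. In small intestine against CDX2 edgeR gave 716 and 721, DESeq2 1208 and 1467, the compared groups alone 16 and 54, the fit without line 3 gave 210 and 356, and the block 1493 and 1449. In small intestine against HNF4A edgeR gave 741 and 844, DESeq2 1238 and 1553, the compared groups alone 266 and 293, and the block 1551 and 1510. In homozygous against wild type edgeR gave 0, DESeq2 148 and 32, and the block 4 and 1, while in heterozygous against wild type DESeq2 gave 313 and 14 and the block 50 and 1.

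Signs turned only in members without an edgeR call in that comparison. By limma-voom Mogat2 was at -0.27 in small intestine over CDX2. With a replicate block Fabp2 was at -0.0022 in CDX2 over HNF4A, Mogat2 at -0.14 and -0.69 in small intestine over GFP and CDX2, Fabp1 at 0.015 in heterozygous over wild type and Mttp at -0.015 in homozygous over heterozygous. Without line 3 Mogat2 was at -0.16 in CDX2 over GFP, -0.25 in small intestine over GFP and -0.092 over CDX2. Without the 3 libraries rich in fibroblast transcripts, Apoa1 was at 0.11 and Apoc3 at 0.048 in homozygous over wild type, Apob at -0.12 in heterozygous over wild type, and Apob at 0.47, Apoa4 at 1.06, Fabp1 at 0.82 and Dgat1 at 0.20 in homozygous over heterozygous.

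With 1 library left out, signs turned within these ranges of log2 fold change. In CDX2 over GFP they were -0.49 to 0.37 for Apob, -0.41 to 0.026 for Mttp, -0.60 to 3.36 for Apoa1, 0 to 2.49 for Apoa4, -0.30 to 0.059 for Dgat1 and -0.29 to 0.60 for Mogat2. In CDX2 over HNF4A Fabp2 ran from -0.33 to 1.09. In small intestine Mogat2 ran from -0.92 to 0.82 over GFP, -1.09 to 0.65 over CDX2 and -1.83 to 0.013 over HNF4A, where Fabp1 ran from -0.45 to 2.83 and Dgat1 from -0.085 to 0.52. In homozygous over wild type Apoa1 ran from -0.82 to 0.10 and Apoc3 from -2.22 to 0.043. In heterozygous over wild type Apoa4 ran from -1.12 to 0.070, Apoc3 from -0.16 to 0.41, Fabp1 from -0.82 to 0.48 and Dgat1 from -0.32 to 0.0045. In homozygous over heterozygous Apob ran from -0.24 to 0.17, Mttp from -0.17 to 0.30, Apoa1 from -0.0067 to 0.92, Dgat1 from -0.087 to 0.10 and Mogat2 from -0.14 to 0.17.

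Apoc3 in every group of the lines, Fabp2 in the enhancer experiment, and Apoa4, Fabp1 and Fabp2 in GFP lines had few counts, and small differences in them were not detectable at this depth.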
